A study of Mus musculus with 6 samples.

Results

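The genes described here are 10 subunits of the mouse Polycomb repressive complexes, Ezh1, Ezh2, Eed, Suz12, Jarid2, Mtf2, Rnf2, Ring1, Bmi1 and Cbx7, picked by gene symbol from the 39017 genes of 2 deposited count tables. Each symbol matched 1 gene, and all 10 genes passed the filter on low counts in both comparisons. PolyA RNA-Seq was performed on 6 libraries of V6.5 mouse embryonic stem cells (mESCs), with 2 libraries in each of 3 groups. In the Pol II degron cells, selected among homozygous clonal lines, an auxin-responsive mAID tag and GFP were fused to the C terminus of RPB1, the largest Pol II subunit. OsTIR1, the plant receptor that hands the tag to the proteasome, was expressed from the Rosa26 locus under doxycycline. All degron cells, the untreated ones included, had 12 h of doxycycline at 1 μg/ml, and the auxin group then had 500 μM auxin (indole-3-acetic acid) for 6 h. The wild-type V6.5 cells carry no tag, and whether they received doxycycline is not given in the sources used here. The cells were grown on irradiated mouse embryonic fibroblast feeders and passaged off them before harvest.

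Polycomb proteins keep developmental genes silent in embryonic stem cells. Polycomb repressive complex 2 (PRC2) methylates lysine 27 of histone H3: Ezh2 or its paralog Ezh1 is the methyltransferase, Eed and Suz12 are needed for the activity of the enzyme, and Jarid2 and Mtf2 are accessory subunits that help to bring the complex to CpG-rich DNA. Polycomb repressive complex 1 (PRC1) ubiquitinates histone H2A through the E3 ligases Rnf2 (RING1B) or Ring1, paired with a PCGF protein such as Bmi1, and in its canonical form binds methylated H3 through a chromodomain protein such as Cbx7, the main one in mESCs.

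The 6 libraries held 14094022 to 15358714 counts. Polr2a, which encodes RPB1, had 6623 and 6568 counts in the untreated libraries, 10396 and 10663 after auxin and 6866 and 7129 in wild type. Auxin removes RPB1 protein and not its mRNA, which therefore cannot serve as a check of the depletion. Markers of pluripotent cells (8 genes) summed to 3616 and 4220 CPM (counts per 1000000 after TMM scaling) in the untreated libraries, 3017 and 3245 after auxin, and 5976 and 5911 in wild type. Markers of feeder fibroblasts (8 genes) summed to 175 to 178 CPM, 202 to 230 CPM and 135 to 141 CPM in the same groups. The 8 pluripotency markers did not all move alike. Against untreated cells, 1 log2 fold change was positive and 7 negative after auxin, and 6 were positive and 2 negative in wild type. The test described below called 4 of the 8 lower and 0 higher after auxin, beside 1.64% and 2.56% of all genes. In wild type it called 5 higher and 1 lower, beside 29.9% and 30.7%. Part of the higher sum in wild type came from Dppa5a, at a mean of 3319 against 1249 RPKM in untreated cells (scale explained below). For wild type the labelled RNA extraction mentions retinas, but 8 retina markers summed to 1.26 and 1.76 CPM there, below the 3.14 to 4.97 CPM of the degron libraries. Mitochondrial mRNAs made up 0.342 to 0.401% of the counts in untreated cells, 0.399 to 0.441% after auxin and 1.5 to 1.53% in wild type. In such bulk samples, fewer cells of a type and less RNA per cell cannot be told apart.

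The promoters of the 4 genes with the largest differences between wild-type and untreated cells, described further on, are printed here so that their letters can be read beside those values. Each window runs from 250 bases before to 50 bases after the RefSeq start on build GRCm38.p6, 5′ to 3′ on the gene's strand. Capitals mark matches, on either strand, to E2F letters (TTTCCCGC, TTTCGCGC, TTTGCCGC or TTTGGCGC), to the CCAAT box (CCAAT, read as ATTGG on the other strand) and to the E-box (CACGTG). The windows are chr6:47594981-47595280 (minus strand) for Ezh2, chr11:79992856-79993155 (plus) for Suz12, chr13:44730524-44730823 (plus) for the upstream start of Jarid2 and chr2:18676768-18677067 (plus) for Bmi1.
Ezh2: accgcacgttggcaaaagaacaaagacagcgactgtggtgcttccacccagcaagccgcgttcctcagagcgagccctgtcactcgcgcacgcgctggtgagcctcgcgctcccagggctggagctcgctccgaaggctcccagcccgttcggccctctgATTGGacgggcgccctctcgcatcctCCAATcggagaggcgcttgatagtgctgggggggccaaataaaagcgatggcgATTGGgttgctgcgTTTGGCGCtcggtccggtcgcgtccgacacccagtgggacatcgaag
Suz12: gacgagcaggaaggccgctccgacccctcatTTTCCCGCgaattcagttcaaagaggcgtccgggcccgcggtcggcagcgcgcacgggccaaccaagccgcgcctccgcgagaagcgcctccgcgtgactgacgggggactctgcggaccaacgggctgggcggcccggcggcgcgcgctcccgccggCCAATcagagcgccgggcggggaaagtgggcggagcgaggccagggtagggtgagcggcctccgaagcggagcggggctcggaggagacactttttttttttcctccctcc
Jarid2: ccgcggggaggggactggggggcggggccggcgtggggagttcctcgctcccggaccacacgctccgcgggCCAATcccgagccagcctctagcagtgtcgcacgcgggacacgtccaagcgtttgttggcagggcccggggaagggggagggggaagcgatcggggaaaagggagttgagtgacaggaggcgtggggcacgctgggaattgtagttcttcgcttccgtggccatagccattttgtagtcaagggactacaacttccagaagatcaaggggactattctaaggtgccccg
Bmi1: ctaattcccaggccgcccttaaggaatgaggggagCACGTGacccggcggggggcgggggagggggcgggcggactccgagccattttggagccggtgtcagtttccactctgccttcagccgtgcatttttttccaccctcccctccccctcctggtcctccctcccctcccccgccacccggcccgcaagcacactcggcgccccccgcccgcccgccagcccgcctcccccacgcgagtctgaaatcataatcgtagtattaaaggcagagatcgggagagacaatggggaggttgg

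The E2F letters stood in the windows of Ezh2 and Suz12, as TTTGGCGC and TTTCCCGC, and in those of no other gene of the 10. Over all 32851 RefSeq promoter windows of mouse, 2.26% held them. The CCAAT box was in 7 of the 12 windows of the 10 genes, beside 37.4% of all windows. These windows belong to 6 genes (Ezh2, Eed, Suz12, Jarid2, Mtf2 and Cbx7), with 3 matches in the Ezh2 window. Mtf2 held the CCAAT box only in its second window. Bmi1 alone held the E-box, which 7.15% of all windows held. None of the matches overlapped another. The 10 genes had 12 windows in all, since Jarid2 and Mtf2 each have 2 starts. Between 17 and 41 CpG dinucleotides lay in the first window of each gene, with the most in Suz12 and the fewest in Eed, against a median of 7 over all windows. The second window of Jarid2 held 23 and that of Mtf2 only 2. These matches describe letters in the windows and are not shown binding sites.

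The mRNA levels of the 10 genes spanned more than an order of magnitude. Levels between genes were compared as RPKM, counts per kilobase of merged exons and per 1000000 counts after TMM scaling over the 6 libraries. In untreated cells, the highest level was that of Mtf2, with 61.1 ± 4.80 RPKM (SD, n = 2). Suz12 (44.9 ± 5.23) and Eed (43.3 ± 0.611) came next and overlapped between replicates. Cbx7 followed at 35.6 ± 1.63 RPKM. Jarid2 (28.6 ± 4.60) and Rnf2 (25.6 ± 1.13) overlapped as well. Ezh2 stood at 22.5 ± 1.85 RPKM and its paralog Ezh1 at 9.18 ± 0.381. The lowest levels were those of Ring1, at 6.01 ± 0.197 RPKM, and of Bmi1, at 3.71 ± 0.506. The order of the 10 means was the same after auxin, from 49.9 ± 4.02 RPKM for Mtf2 down to 4.56 ± 0.587 for Bmi1, and no neighbours overlapped there.

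In wild-type cells Suz12 was first on this scale with 67.6 ± 0.489 RPKM, followed without overlap by Mtf2 with 62.3 ± 2.13, Jarid2 with 43.5 ± 0.827, Eed with 38.0 ± 0.587 and Cbx7 with 35.9 ± 0.674. Ezh2 (31.6 ± 0.683) and Rnf2 (30.8 ± 0.743) overlapped. Ezh1 (8.70 ± 0.183), Ring1 (6.40 ± 0.317) and Bmi1 (2.25 ± 0.0522) were again the lowest. These orders depend on the length assigned to a gene. With the longest transcript in place of the merged exons, Ezh2, whose length went from 6678 to 2787 bases, was in place 3 in each group, Mtf2 rather than Suz12 was first in wild type (87.5 against 76.4 RPKM), Eed was first after auxin, and 4 of the 10 genes kept their place in untreated cells (Mtf2, Ezh1, Ring1 and Bmi1).

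**Figure D1:**
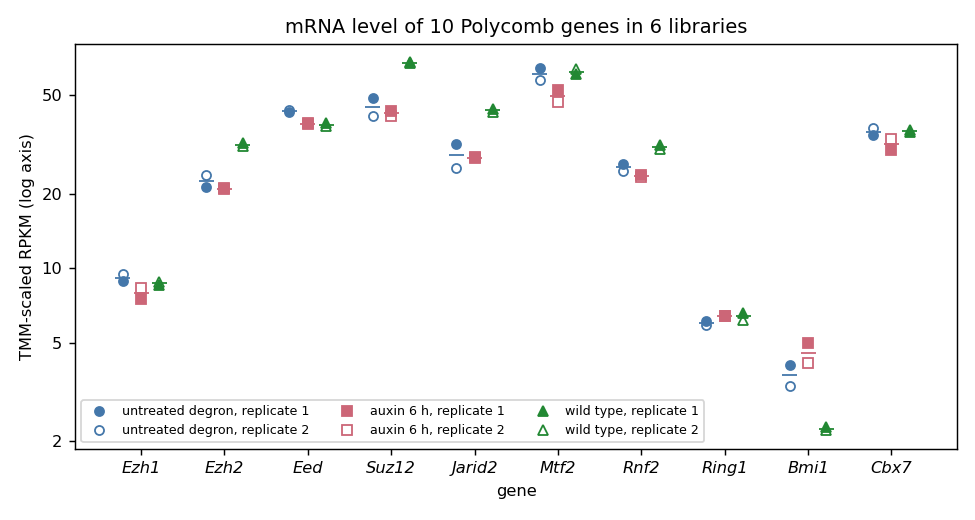
Level of each of the 10 Polycomb genes in the 6 libraries, in RPKM after TMM scaling on a log axis; each symbol is 1 library and each short line the mean of 2. The wild-type libraries lie above the untreated and auxin ones for Ezh2, Suz12, Jarid2 and Rnf2 and below them for Bmi1, while the auxin libraries stay close to the untreated ones.

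The comparison of auxin-treated with untreated cells asks how the polyA RNA pool differed after 6 h of Pol II degradation. None of the 10 Polycomb genes passed the quasi-likelihood test of edgeR, at a threshold of 0.05 on p-values adjusted by Benjamini-Hochberg over all 16128 genes tested. Over all genes, 2.56% were called higher and 1.64% lower, and among the 8302 genes whose mean level lay within the range of the 10 Polycomb genes 4.17% were called. At an unadjusted p under 0.05 stood 4 of the 10, beside 20.1% of all genes, and DESeq2 called 0. The fitted log2 fold changes ran from -0.27 for Mtf2 to 0.32 for Bmi1, 8 of them negative and 2 positive, with a median of -0.09 against 0.00 over all genes. The 95% intervals of the 10 genes all lay between -0.45 and 0.61, so a change of 2-fold was outside the interval for each of them, on a scale set by the rest of the polyA RNA. CPM carries no absolute scale, and a loss shared by all mRNAs would not be seen. In 7 of the 10 genes the groups did not overlap, against 49.9% of all genes. Values are given in CPM after the TMM scaling of the 4 libraries of this comparison.

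Among the methyltransferases, Ezh1 (chromosome 11, 101191115 to 101226463, minus strand, mm10) had 67.1 and 71.2 CPM in untreated cells and 57.6 and 63.6 after auxin. Both auxin libraries were lower than both untreated ones, and the log2 fold change of -0.19 (SE 0.08, adjusted p = 0.189) did not pass the test. Ezh2 (chromosome 6, 47530139 to 47595341, minus strand) had 144 and 161 CPM in untreated cells and 144 in each auxin library. Its groups overlapped, with a log2 fold change of -0.08 (SE 0.07, adjusted p = 0.570).

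Of the core partners, Eed (chromosome 7, 89954654 to 89980983, minus strand) had 166 and 170 CPM in untreated cells and 150 and 151 after auxin. The auxin libraries were the lower ones without overlap, by a log2 fold change of -0.16 (SE 0.06, adjusted p = 0.198). Suz12 (chromosome 11, 79993106 to 80034123, plus strand) had 244 and 207 CPM against 220 and 209. The auxin values lay within the spread of the untreated pair, with a log2 fold change of -0.07 (SE 0.08, adjusted p = 0.694).

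Of the accessory subunits, Jarid2 (chromosome 13, 44729474 to 44921643, plus strand) had 313 and 249 CPM in untreated cells and 278 and 280 after auxin. Its untreated libraries stood on either side of the auxin ones, and the log2 fold change was -0.01 (SE 0.09, adjusted p = 0.958). Mtf2 (chromosome 5, 108065674 to 108109004, plus strand) came closest to the threshold. It had 372 and 333 CPM in untreated cells and 309 and 274 after auxin, lower in both auxin libraries without overlap. The log2 fold change of -0.27 (SE 0.08, 95% interval -0.45 to -0.10) had an adjusted p of 0.0781, or 0.0877 by DESeq2. With all 3 groups in 1 fit, which has more residual degrees of freedom, Mtf2 was called lower at an adjusted p of 0.0171.

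For the PRC1 ligases, Rnf2 (chromosome 1, 151458004 to 151500955, minus strand) had 110 and 104 CPM in untreated cells and 101 and 98.2 after auxin. Its auxin values were lower without overlap, by a log2 fold change of -0.10 (SE 0.07, adjusted p = 0.445). Ring1 (chromosome 17, 34020792 to 34024680, minus strand) had 20.2 and 19.3 CPM, from 286 and 277 counts, against 21.4 and 21.2 CPM, from 331 and 321 counts. Both auxin values were the higher ones, with a log2 fold change of 0.11 (SE 0.10, adjusted p = 0.617), but with scaling to the mitochondrial mRNAs it was -0.06.

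Bmi1 (chromosome 2, 18677018 to 18686629, plus strand), the least abundant of the 10, had 16.4 and 13.5 CPM in untreated cells (232 and 194 counts) and 20.3 and 16.8 after auxin (315 and 255 counts). The groups were apart by a narrow gap, and the log2 fold change of 0.32 (SE 0.14, 95% interval 0.02 to 0.61) had an adjusted p of 0.217. Cbx7 (chromosome 15, 79915807 to 79971119, minus strand) had 226 and 241 CPM in untreated cells and 201 and 221 after auxin. It was lower in both auxin libraries, with a log2 fold change of -0.15 (SE 0.07, adjusted p = 0.280). Leaving out 1 untreated library changed calls, in fits where the spread came from the 2 auxin libraries alone and the lone untreated library was taken to vary like them. Without untreated replicate 1, Ezh1 (log2 fold change -0.24, adjusted p = 0.0353), Mtf2 (-0.20, 0.0130) and Cbx7 (-0.20, 0.0169) were called lower and Bmi1 (0.46, 0.0128) higher. Without untreated replicate 2, Suz12 (-0.19, 0.0462) and Mtf2 (-0.36, 4.45e-07) were called lower. Without either auxin library, 0 of the 10 were called.

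The comparison of wild-type with untreated degron cells asks how the tagged line differed from unedited cells before auxin. Relative to the median gene, PRC2 and PRC1 genes moved in both directions: Suz12, Jarid2 and Ezh2 were 1.40-fold to 1.52-fold higher in wild type, Rnf2 was 19.8% higher, and Bmi1 and Eed were lower. With scaling to the mitochondrial mRNAs all 10 log2 fold changes became negative, since that scaling put the median of all genes at -2.10. It shifts all genes of a library alike, so values relative to the median gene are nearly fixed and give no further check. All 13 mitochondrial mRNAs were called higher in wild type, and their part in these results was not tested. For some of them the 2 wild-type libraries differed widely, as for mt-Co3 with 1897 and 316 counts. For mt-Nd3, with 340 and 55 counts in wild type, DESeq2 gave an adjusted p of 0.0866. The test called 4 of the 10 genes higher and 2 lower, beside 29.9% and 30.7% of the 15778 genes tested, so the share called was about that of all genes. The median of the 10 log2 fold changes was 0.05, against -0.01 over all genes. The groups did not overlap in 7 of the 10 genes, against 81.0% of all genes. The wild-type libraries come from a separate table, so that the tag, the OsTIR1 insertion and its expression, the choice of clones, doxycycline and any difference in preparation cannot be told apart. Both comparisons use the same untreated libraries, and a chance deviation of these enters both.

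Ezh2 had 210 and 204 CPM in wild type against 140 and 157 in untreated cells, on the scale of this comparison. Both wild-type libraries were above both untreated ones, with a log2 fold change of 0.48 (SE 0.07, adjusted p = 9.9e-05). Ezh1 had 62.6 and 64.5 CPM in wild type and 65.4 and 69.4 in untreated cells. Its log2 fold change was -0.08 (SE 0.07, adjusted p = 0.315), and the difference between the paralogs was not tested.

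Suz12 had 326 and 330 CPM in wild type against 237 and 201, a log2 fold change of 0.58 (SE 0.08, adjusted p = 4.78e-05). Eed, its partner in the core, had 145 and 141 CPM in wild type against 162 and 165, and was lower by a log2 fold change of -0.19 (SE 0.06, adjusted p = 0.0146). The groups were apart for both genes, in opposite directions. For Eed, DESeq2 gave an adjusted p of 0.0649, and leaving out wild-type replicate 1 or 2 gave 0.133 and 0.205, with the spread then taken from the 2 untreated libraries alone.

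Jarid2 had 421 and 410 CPM in wild type against 305 and 243 in untreated cells, the largest positive log2 fold change of the 10 at 0.60 (SE 0.09, adjusted p = 0.000143). The untreated replicates of Suz12 and Jarid2 were spread more widely than the wild-type ones, and in both genes replicate 1 was the higher. Mtf2, the other accessory subunit, had 340 and 357 CPM in wild type and 363 and 325 in untreated cells. Its groups overlapped, and the log2 fold change was 0.02 (SE 0.07, 95% interval -0.13 to 0.17, adjusted p = 0.798).

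Rnf2 had 127 and 123 CPM in wild type against 108 and 101, a log2 fold change of 0.26 (SE 0.06, adjusted p = 0.00464), with no overlap. Without wild-type replicate 1 its adjusted p was 0.0596. Ring1 had 21.1 and 19.7 CPM (305 and 287 counts) against 19.7 and 18.8, which overlapped, with a log2 fold change of 0.08 (SE 0.10, 95% interval -0.14 to 0.31, adjusted p = 0.502).

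Bmi1 showed the largest difference of the 10 in size. It had 8.93 and 8.64 CPM in wild type (129 and 126 counts) against 16.0 and 13.2 in untreated cells, a log2 fold change of -0.73 (SE 0.15, 95% interval -1.06 to -0.40, adjusted p = 0.00133). Both wild-type libraries were well below both untreated ones. Cbx7 had 225 and 232 CPM in wild type and 220 and 235 in untreated cells, with a log2 fold change of 0.00 (SE 0.06, 95% interval -0.13 to 0.14, adjusted p = 0.953).

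**Figure D2:**
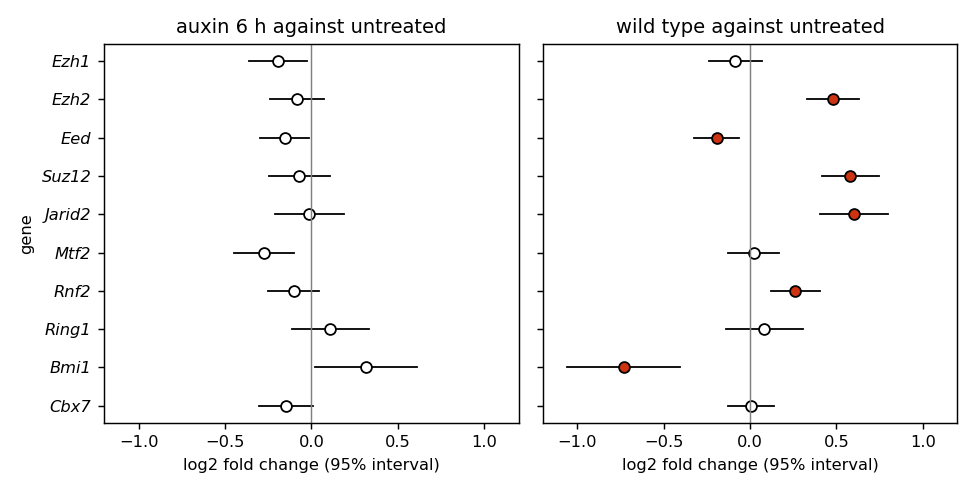
Log2 fold change of each of the 10 genes with its 95% interval, after auxin (left) and in wild type (right), both against untreated degron cells; filled points passed the test. No point is filled on the left, and on the right Ezh2, Suz12, Jarid2 and Rnf2 lie above 0 and Eed and Bmi1 below, on the TMM scale (with scaling to the mitochondrial mRNAs all 10 on the right are below 0).

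Reads from overlapping genes could enter these counts, since it is not given in the sources used here whether counting used strand. By GENCODE vM21, no exon of the 10 genes overlaps a gene on its own strand. On the opposite strand, 395 exonic bases of Mtf2 overlap Tmed5, 158 of Rnf2 overlap Trmt1l and 100 of Cbx7 overlap Apobec3, while Ezh2, Eed and Suz12 share 174 to 261 bases with noncoding genes. Trmt1l had 646 and 672 counts in untreated cells and 390 and 437 in wild type, the opposite of the order of Rnf2. Apobec3 had 754 and 918 counts in untreated cells and 1870 and 1921 in wild type, where Cbx7 did not pass the test. Tmed5 had 405 to 596 counts in all 6 libraries, and the noncoding partners of Ezh2 and Suz12 had at most 44. For the noncoding partner of Eed no counts were found, so its share could not be looked at. Of 100-base stretches of transcript, 6.52% of those of Bmi1 also stood in the gene Gm5946, which had 0 or 1 count in each library, and 0% of those of the other 9 stood in another gene.

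Ratios between genes of the same role compare paralogs within 1 library, so that the scaling of libraries drops out. They use the RPKM of each library and are given without a test, since an exact permutation test of 2 against 2 cannot go below p = 0.333. Ezh1 stood at 0.420 and 0.396 of the level of Ezh2 in untreated cells and at 0.360 and 0.397 after auxin, which overlapped. In wild type the ratio was 0.267 and 0.284, below every degron library. For the ligases, the ratio of Ring1 to Rnf2 was 0.233 and 0.237 in untreated cells, 0.269 and 0.275 after auxin and 0.211 and 0.204 in wild type. The 3 groups did not overlap in this ratio, with auxin highest and wild type lowest.

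Pcgf2 (MEL18), the closest paralog of Bmi1, was the more abundant of the pair in every library. Its ratio to Bmi1 was 5.21 and 6.65 in untreated cells, 3.69 and 4.39 after auxin and 7.76 and 7.75 in wild type. Pcgf2 itself had a log2 fold change of -0.24 (SE 0.07, adjusted p = 0.0814) after auxin and was lower in wild type by a log2 fold change of -0.33 (SE 0.07, adjusted p = 0.00164), smaller in size than that of Bmi1, though the difference between the genes was not tested. Without untreated replicate 1, Pcgf2 was called lower after auxin (log2 fold change -0.28, adjusted p = 0.00825).

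Of the chromodomain proteins, Cbx7 was more abundant than its paralogs Cbx2, Cbx6 and Cbx8 in all 6 libraries. The ratio of Cbx2 to Cbx7 was 0.227 in both untreated libraries, 0.239 and 0.223 after auxin and 0.284 and 0.253 in wild type, where it was above every degron library. After auxin Cbx2 (log2 fold change -0.13, adjusted p = 0.463), Cbx6 (-0.12, 0.325) and Cbx8 (0.56, 0.286), did not pass the test. In wild type Cbx2 was higher (log2 fold change 0.24, adjusted p = 0.0242, or 0.144 by DESeq2, and 0.0580 and 0.225 without untreated replicate 1 and wild-type replicate 1), Cbx6 was lower (-0.28, 0.00298) and Cbx8, with 23 to 40 counts per library, was not called (0.28, 0.479). With scaling to the mitochondrial mRNAs the fold changes of Cbx2 and Cbx8 in wild type were negative. Cbx6 shares 563 exonic bases with Npcd on its own strand, so its counts are uncertain.

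**Figure D3:**
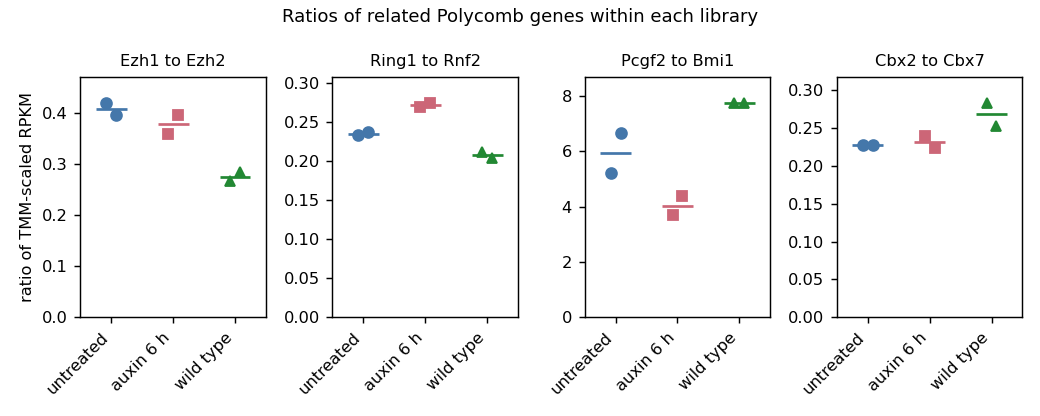
Ratio of the RPKM of Ezh1 to Ezh2, Ring1 to Rnf2, Pcgf2 to Bmi1 and Cbx2 to Cbx7 in each library (points, 2 per group, lines at the mean, axes from 0). The ratio of Ring1 to Rnf2 is highest after auxin and lowest in wild type, and that of Ezh1 to Ezh2 overlaps between untreated and auxin and is lower in wild type.

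The 10 genes can be set beside 43 further genes, called other Polycomb genes here. They encode subunits and partners of PRC2, PRC1 and the H2A deubiquitinase (PR-DUB), the PRC2 inhibitor Ezhip and the H3K27 demethylases, which oppose PRC2. After auxin, 0 of the 42 tested were called higher, 4 were called lower and 38 were not called, beside 1.64% of all genes called lower. An unadjusted p under 0.05 was found for 11 of the 42 and 20.1% of all genes, and DESeq2 called 1. This was Phc1 (adjusted p = 0.0260 by DESeq2), named after its value was seen. In edgeR its log2 fold change of -0.30 (SE 0.08) had an adjusted p of 0.0546. The log2 fold changes were negative for 33 of the 42 and for 50.1% of all genes, with a median of -0.08. The lower ones with the smallest p were Asxl1 (-0.30, SE 0.07, adjusted p = 0.0340) and Asxl2 (-0.31, SE 0.07, 0.0343), which activate the PR-DUB enzyme Bap1, and Rybp (-0.26, SE 0.07, 0.0476), a subunit of PRC1 that lacks a Cbx protein. The fourth, Pcgf1 (-0.48, SE 0.12, 0.0481), belongs to the same kind of PRC1 and is named after its value was seen. These 4 calls lay close to the threshold and were all lost under DESeq2 and when either auxin library was left out (adjusted p from 0.102 to 0.338 in the latter).

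In wild type, 17 of the 43 other genes were called higher, 14 lower and 12 were not called, with a median of 0.19, beside the 29.9% and 30.7% of all genes. With scaling to the mitochondrial mRNAs 0 were called higher and 42 lower. The higher ones with the smallest p were Asxl1 (log2 fold change 0.87, SE 0.07, adjusted p = 7.09e-07), the histone-binding PRC2 subunit Rbbp4 (0.62, SE 0.06, 5.44e-06) and the PRC2 accessory subunit Phf19 (1.30, SE 0.13, 6.41e-06). The lower ones were Epop (-1.15, SE 0.06, 4.51e-08), Phc3 (-0.75, SE 0.07, 4.79e-06) and Mbd6 (-0.63, SE 0.07, 1.02e-05). With scaling to the mitochondrial mRNAs, which shifts all genes of a library alike, Asxl1, Rbbp4 and Phf19 were lower. Epop, like Mtf2 and Phf19 a subunit of PRC2.1, had 4327 and 4493 counts in untreated cells and 2012 and 1939 in wild type. Of the other accessory subunits of that form, Phf1 (log2 fold change 0.25, adjusted p = 0.0627) and Lcor (0.26, 0.110), named here after their values were seen, were not called.

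**Figure D4:**
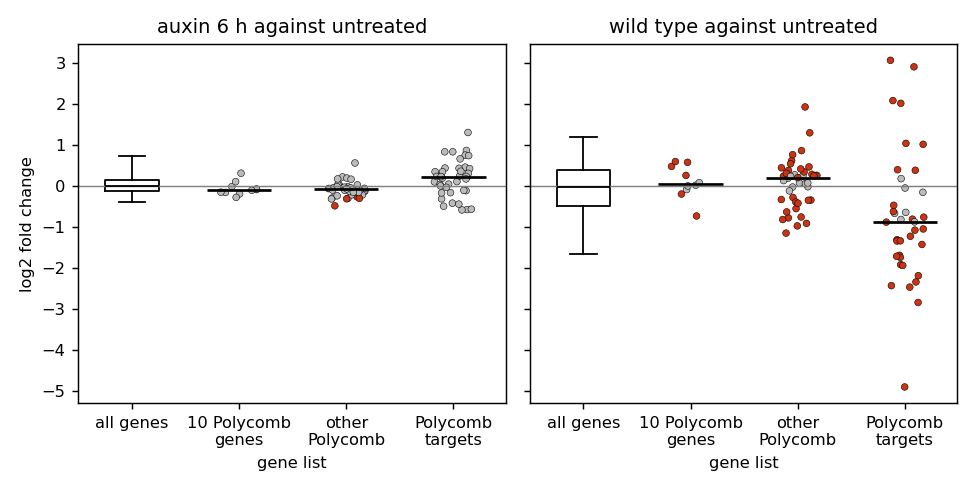
Log2 fold changes after auxin (left) and in wild type (right) against untreated cells, for all genes tested (box, quartiles with whiskers at the 5th and 95th percentile) and for single genes of 3 lists, with a line at each list's median. Only genes that passed the filter are drawn, some of the targets only through the group where they are high. Red points passed the test. On the left the 4 red points are other Polycomb genes below 0, and on the right red points lie on both sides of 0 in every list, on the TMM scale.

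Beside the complexes, 55 textbook targets of Polycomb in mESCs were looked at, which are developmental regulators apart from Cdkn2a. The summed level of the 55, Cdkn2a included, was 220 and 240 CPM in untreated cells, 239 and 254 after auxin and 180 and 169 in wild type. These sums are on the scale of the 6 libraries. After auxin 40 of the 55 had enough counts to be tested and 0 were called, with 9 of the 40 at an unadjusted p under 0.05, beside 20.1% of all genes, and 0 called by DESeq2. The median log2 fold change of the targets tested was 0.23, with 28 positive and 12 negative, beside 50.1% of all genes negative. Some of them, such as Pax7, Lhx5 and Dlx1, passed the filter only with the auxin libraries, where they are high. Their positive sign was thereby fixed, so this median and split do not stand for the whole list. Of the 8 feeder fibroblast markers, 6 were tested, 5 of them positive and 1 negative, with a median of 0.31 and 1 called higher (Col1a2). Those not tested were Lum, at 0 counts, and Dcn, at 1 to 4 counts. The part of feeder cells in the values of the targets was not tested. In wild type 38 were tested, 8 were called higher and 23 lower, beside 29.9% and 30.7% of all genes, with a median of -0.88. With scaling to the mitochondrial mRNAs 1 was called higher and 34 lower. In the same comparison 3 feeder markers were called lower (Col1a2, Thy1 and Fbn1) and 1 higher (Postn). Genes that pass the filter through the group in which they are high had to differ, so these counts do not stand for the whole list. The lower ones with the smallest p were the mesoderm factor T, Gata2 (log2 fold change -2.34, SE 0.23, adjusted p = 4.64e-06) and Foxf1. T had 163 and 267 counts in untreated cells and 6 and 8 in wild type. T and Foxf1 passed the filter only with the untreated libraries, where they are high, so no fold is given for them. The higher ones were the neural factor Olig2 (log2 fold change 3.07, SE 0.15, adjusted p = 3.18e-08), with 44 and 62 against 461 and 425 counts, and the endoderm factor Sox17. Sox17 had 9 and 24 against 79 and 61 counts. It passed the filter only with the wild-type libraries, where it is high, so its fold is left out. With scaling to the mitochondrial mRNAs Sox17 was not called (adjusted p = 0.944). The proneural gene Neurog1, also called higher, had 2 and 3 counts in untreated cells and 16 and 23 in wild type. It passed the filter through wild type alone, so no fold is given.

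Cdkn2a, which is in the list of targets above, is a target of PRC1 with Bmi1 or Cbx7 and was chosen for that after its values were seen. It had 537 and 532 counts in untreated cells, 690 and 659 after auxin and 386 and 381 in wild type. Its log2 fold change after auxin was 0.23 (SE 0.08, adjusted p = 0.126). In wild type it was lower, by a log2 fold change of -0.47 (SE 0.08, adjusted p = 0.000394).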

How the data were processed

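The 10 genes, the lists of related genes and the tests were chosen with earlier results of these data known. The authors aligned 150-base paired reads to mm10 with HISAT2 2.1.0, counted them per gene with salmon and HTSeq according to the submitters' processing notes, and deposited raw counts that are not normalized, with degron and wild-type libraries in separate tables. The annotation release and the strand setting are not given in the sources used here. The degron table also holds the authors' comparison (fold changes and p-values), which was not used, and 2 columns of per-sample values matched no sample and were not used.

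Tests were run in edgeR 4.0.16 under R 4.3.3 (glmQLFit and glmQLFTest, TMM, filterByExpr with a minimum count of 10, Benjamini-Hochberg adjustment, adjusted p under 0.05, prior count 0.125), each comparison on its own 4 libraries, after the procedure was tested on simulated data. The 95% intervals come from this fit. The study states that its high-throughput experiments had biological replicates, without saying whether these were separate cultures, and p-values measure the spread between these libraries. The 6 libraries had 14094022 to 15358714 counts. Relative counting error is larger for Bmi1 and Ring1 than for the other 8 genes, since their counts are the lowest.

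The alternatives were DESeq2 1.42.0, its size factors in edgeR, scaling by library totals alone or by mitochondrial mRNAs, dropping the filter, a stricter filter (every library at 10 counts or more), a replicate block, 1 fit of all 3 groups, and leaving out each library. Positions and lengths are from GENCODE vM21, whose IDs matched 37607 of the 39017 genes, and promoters from RefSeq. Epop and Ezhip were found through older symbols. Besides the 10 genes, the text names the 3 calls of smallest p per list, comparison and direction, the paralogs Pcgf2, Cbx2, Cbx6 and Cbx8, and Polr2a. Exceptions are marked, and 1 further gene of the Polycomb list is not reported here.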

Additional observations from a re-analysis of the deposited data

How the results depend on the processing

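Of the 120 fold changes of the 10 genes under alternatives in each comparison, 108 after auxin and 101 in wild type kept their direction and their side of the threshold. After auxin, 0 of the 10 genes were called, but 1 (Mtf2) with all 3 groups in 1 fit and 0 to 4 with 1 library left out. The other Polycomb genes called, 4 in the report, came to 1 under DESeq2, 2 with library totals, 0 with the mitochondrial mRNAs, 0 with no filter, 2 with at least 10 counts in every library, 8 with all 3 groups and 0 to 10 with 1 library left out. The targets called, 0 in the report, came to 0 to 3 with 1 library left out. All genes called, 677 in the report, came to 236 under DESeq2, 219 with the mitochondrial mRNAs, 55 with no filter, 432 with at least 10 counts, 1235 with all 3 groups and 179 to 2724 with 1 library left out. The sign turned for Jarid2 with library totals (0.00185), for Ring1 with the mitochondrial mRNAs (-0.0615), and without untreated replicate 1 for Jarid2 (0.157) and Suz12 (0.0485), whose values with 1 library left out ran from -0.172 and -0.189 up to these. The cause was not tested.

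In wild type, scaling to the mitochondrial mRNAs called all 10 genes lower and 15308 genes in all, against 6 and 9555. The log2 fold changes that turned were -1.61 for Ezh2, -1.53 for Suz12, -1.51 for Jarid2, -2.08 for Mtf2, -1.84 for Rnf2, -2.01 for Ring1, -2.09 for Cbx7, -1.85 for Cbx2, -1.80 for Cbx8, -2.003 for Polr2a, -1.22 for Asxl1, -1.47 for Rbbp4 and -0.80 for Phf19. Mtf2 and Cbx7, near 0 in the report, turned with library totals (-0.0369 and -0.0526), and Cbx7 with at least 10 counts in every library (-0.0127). With 1 library left out, Mtf2 ran from -0.0589 (without untreated replicate 2) to 0.103, and was also negative without wild-type replicate 2. Cbx7 ran from -0.0421 (without untreated replicate 1) to 0.0499, and was also negative without wild-type replicate 2. Cbx8 ran from -0.0662 (without wild-type replicate 2) to 0.566. The targets called fell from 31 to 17 under DESeq2 and 20 with at least 10 counts in every library, where fewer genes were tested. The order of levels in untreated cells kept 4 of 10 places with longest transcripts.

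Replicates shared only a number: their deviations correlated by 0.0696 in the auxin comparison (0.123 over genes averaging 100 counts or more) and -0.0289 in the other (-0.0600). The replicate block left 1 residual degree of freedom and after auxin called 1 of the 10 genes (Mtf2, adjusted p = 0.00157), 9 other Polycomb genes, 3 targets and 1930 genes in all. In wild type it moved no count by over 1.5 times. With 2 libraries a group, small differences of weakly expressed genes such as Bmi1, Ring1 and Cbx8 are the least well known.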
